A study of Mus musculus with 8 samples.

Results

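The expression of 10 genes for cytokines and a cytokine receptor was examined in RNA-seq libraries of mouse bone marrow stromal populations. The members Csf2, Csf3, Il34, Il6, Lif, Il11, Il1b, Il1r2, Il33 and Tslp were taken by their symbols, and all 10 were found among the 49315 genes of the deposited counts. The libraries comprised 1 each of clusters 1 to 7, subpopulations of stromal cells that were sorted from bone marrow and are called C1 to C7 here, and 1 of input bone marrow cells, to which the labels give the same stromal cell type as to C1 to C7. All were of wild type mice, C57BL/6J by the labels, with a labelled age of 6 weeks, and no treatment is given. The study's methods name C57BL/6JJcl mice. According to the study's methods, cells were sorted as negative for CD31, CD45 and Ter119, markers of endothelial cells, white blood cells and red blood cells, and antibodies to PDGFR-α (CD140a), Sca-1, CD24, CD39 and CD54 were used to enrich and separate the populations, whereas the extraction protocol in the labels describes crushed marrow. The study's results also name Ly-6C among the markers used for isolation. The number of mice behind each library is not given in the sources used here. Total counts were 24205863 in C1, 25349917 in C2, 27102715 in C3, 32549319 in C4, 12833648 in C5, 31669132 in C6, 33238133 in C7 and 20162876 in the input. Because each population had 1 library, no p-value is given. Ranges in parentheses after a level or ratio are 95% intervals of counting error, exact Poisson for a level and exact binomial for a ratio of 2 libraries, for scaling by total count, and they hold neither the variation between sorts nor that between scalings. Where 1 library is said to exceed another by a number, the number is the ratio of their RPKM. In such bulk libraries, fewer cells of a type and less RNA per cell cannot be told apart.

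Stromal cells of the marrow influence blood formation through secreted cytokines. GM-CSF, G-CSF and IL-34 act on myeloid cells through their receptors, whereas IL-6, LIF and IL-11 bind different receptor subunits that share the signalling chain gp130. IL-1β and IL-33 belong to the IL-1 family, in which IL-1β is a product of activated myeloid cells and IL-33 is an alarmin stored in the nuclei of stromal and barrier cells. TSLP acts on dendritic and lymphoid cells. Many of these transcripts are short-lived and are induced upon inflammatory signals or tissue injury. According to the study's methods, fragments of crushed bone were digested with warm collagenase to release the cells. Any effect of this handling on the levels was not tested.

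Expression was measured as RPKM, read counts scaled by the exon length of the gene and by the total count of the library, so that levels can be compared between genes. All 10 members had RPKM above 2 in at least 1 sorted library, as did 25.1% of all genes. In RPKM + 1, the highest sorted library exceeded the lowest more than 2-fold for all 10, against 70.6% of the genes with RPKM above 2. With TMM factors, which scale libraries on the assumption that most genes do not differ, 9 members did so (background 56%), and without the C5 library also 9 (background 52.1%). The exception was Lif in both. A range above 4-fold was found for 8 members (background 15.7%) and above 8-fold for 5, Csf2, Il6, Il11, Il33 and Il1b (background 4.67%). The median log2 range of RPKM + 1 was 3.05 for the members and 1.26 for all genes tested.

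The highest library differed between members. It was C3 for 3 members (background 9.85%), C7 for 3 (25.3%), C4 for 2 (8.95%), C1 for 1 (21.3%) and C2 for 1 (22.8%). C6 was the lowest library for 5 members (background 25.5%), C5 for 3 (46.3%) and C3 for 2 (8.11%). A lead of more than 2-fold in RPKM + 1 over each other sorted library was held by 4 members, Csf2, Il11, Il1b and Il1r2, against 5.4% of genes. With TMM factors (background 5.93%) and with DESeq2 size factors (6.21%) it was held by Csf2 and Il1b alone. The members were chosen with earlier results of these data known, so these counts are descriptions.

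**Figure D1:**
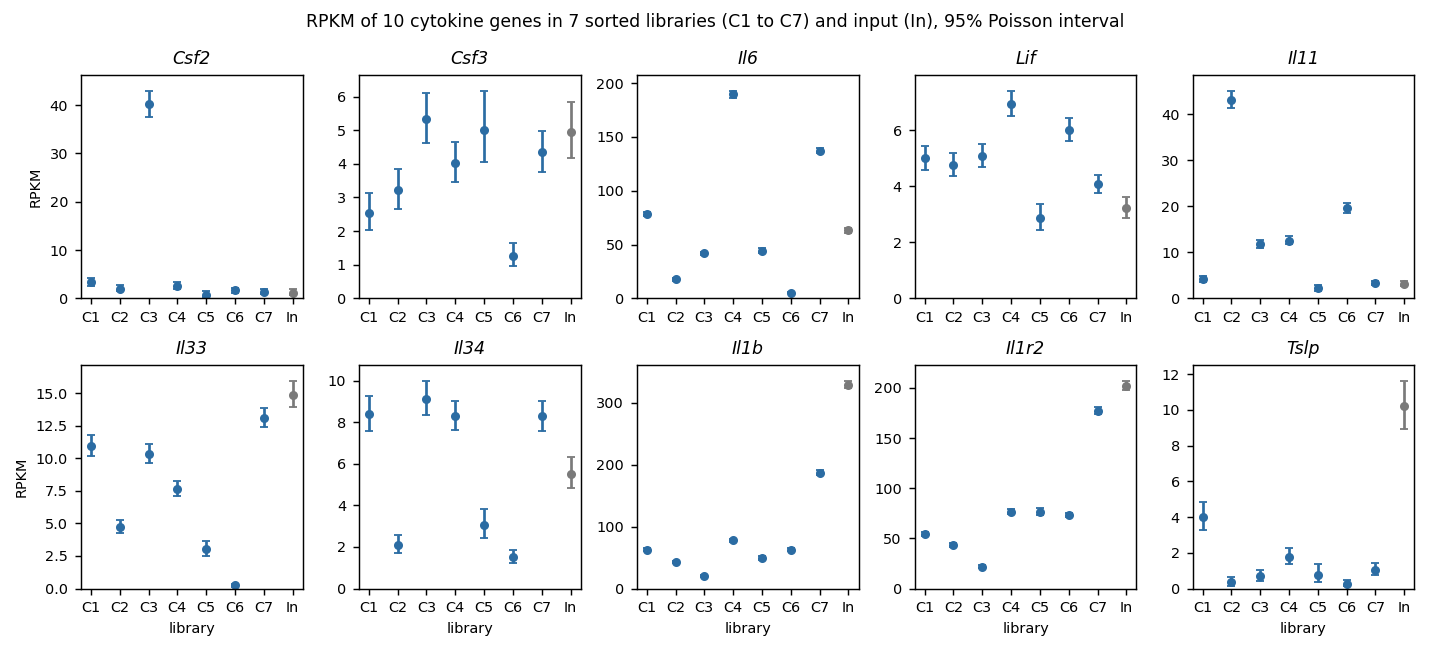
RPKM (vertical axes, starting at 0) of each of the 10 genes in the libraries of clusters 1 to 7 (C1 to C7, blue) and the input (In, grey), with exact Poisson 95% intervals of the counts. Csf2 stands out in C3, Il11 in C2 and Il6 in C4 and C7, and Il33, Il1b, Il1r2 and Tslp are highest in the input by total count, of which Il33 and Il1r2 are not with TMM factors.

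Among the colony-stimulating factors, Csf2 was concentrated in C3. Csf2 encodes GM-CSF, a growth factor of granulocytes and macrophages (ENSMUSG00000018916, chromosome 11 from 54247271 to 54249667 of GRCm38). Its RPKM was 40.1 (37.5 to 42.9) in C3, 3.305 in C1, 2.61 in C4, 2.02 in C2, 1.66 in C6, 1.39 in C7, 0.779 in C5 and 1.18 in the input. C3 thus stood alone, with 870 counts against 64 in C1, a ratio of 12.1 (9.41 to 15.9). Among the other 6 sorted libraries, no interval between neighbours in the order of levels excluded a ratio of 1, although C1 exceeded C5 by 4.24 (2.03 to 10.2). With TMM factors the ratio of C3 to C1 was 13.6. Of the genes with RPKM above 2 that were compared in C3, 0.736% exceeded each other sorted library to the same degree of more than 2-fold in RPKM + 1. The overlapping gene Gm12223 had at most 9 counts.

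Csf3 encodes G-CSF, which drives the production and release of neutrophils (ENSMUSG00000038067, chromosome 11 from 98701263 to 98703629). Its RPKM was 5.33 (4.62 to 6.11) in C3, 5.02 in C5, 4.34 in C7, 4.02 in C4, 3.21 in C2, 2.54 in C1, 1.27 in C6 and 4.95 in the input. The level was low and fell in small steps from C3 to C1, where no interval between neighbours excluded 1, although C3 exceeded C1 by 2.09 (1.62 to 2.72) and C5 exceeded it by 1.97 (1.45 to 2.68). C6 was lowest, and C1 exceeded it by 1.997 (1.41 to 2.84). The input lay within the range of the sorted libraries. With TMM factors the highest library was C5, with 6.35, instead of C3, with 5.06, and C5 exceeded C7 by 1.62.

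Il34 encodes a ligand of the CSF1 receptor that supports macrophages independently of CSF1 (ENSMUSG00000031750, chromosome 8 from 110741829 to 110805924). Its RPKM was 9.12 (8.32 to 9.97) in C3, 8.39 in C1, 8.296 in C4, 8.28 in C7, 3.06 in C5, 2.11 in C2, 1.499 in C6 and 5.52 in the input. The sorted libraries fell into a high set of C1, C3, C4 and C7, within which C3 exceeded C7 by 1.101 (0.972 to 1.25), and a low set of C2, C5 and C6. Levels within the low set differed more, where C5 exceeded C6 by 2.04 (1.49 to 2.79), or 2.14 with TMM factors. Between the sets, C7 exceeded C5 by 2.703 (2.13 to 3.48), or 1.93 with TMM factors. The overlapping genes Gm15894 and Gm15895 had at most 9 counts.

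Il6 had the highest peak of the 3 members for gp130 cytokines, but was below Il11 in C2 and below Il11 and Lif in C6. IL-6 induces acute-phase responses and acts on blood progenitors, B cells and osteoclast formation (ENSMUSG00000025746, chromosome 5 from 30013114 to 30019981). The sequence before its transcript start is shown because well-known inducible elements of this gene lie there. The 250 bases at chr5:30012864-30013113 (+ strand, RefSeq, GRCm38.p6) read, 5′ to 3′, with matches to 3 motifs in capitals:

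Il6: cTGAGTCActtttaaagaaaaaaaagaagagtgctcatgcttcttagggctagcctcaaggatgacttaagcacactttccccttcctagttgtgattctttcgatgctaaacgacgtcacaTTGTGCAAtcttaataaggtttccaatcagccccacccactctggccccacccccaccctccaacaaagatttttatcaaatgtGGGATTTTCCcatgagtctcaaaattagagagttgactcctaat

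The capitals mark, from the distal end, an AP-1 match from -249 to -243, a C/EBP match on the opposite strand from -128 to -121 and an NF-κB match from -44 to -35, counted in bases from the transcript start. The motifs were searched on both strands as TGANTCA for AP-1, TTGCNNAA for C/EBP, TATAAA for the TATA box and, for NF-κB, GGGA and TTCC separated by any 2 bases. Of 32851 RefSeq promoters, 6.75% held the AP-1, 9.56% the C/EBP, 1.21% the NF-κB and 12.4% the TATA letters within 250 bases. A match describes letters and does not show binding.

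The RPKM of Il6 was 189.5 (187 to 193) in C4, 137 in C7, 78.3 in C1, 44.1 in C5, 41.9 in C3, 17.6 in C2, 5.05 in C6 and 63.2 in the input. The order ran from C4 down to C6, and by total count only C5 and C3 were not separated by the interval of their ratio, 1.05 (0.984 to 1.12), which was 1.398 with TMM factors. C4 exceeded C7 by 1.38 (1.35 to 1.42), C6 by 37.6 (33.96 to 41.7) and the input by 2.997 (2.88 to 3.12). With TMM factors the ratio of C4 to C6 was 29.9 and that of C4 to the input 4.91.

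Lif and Il11 did not follow Il6. Lif encodes leukaemia inhibitory factor, which acts on osteoblasts, osteoclasts and stem cells (ENSMUSG00000034394, chromosome 11 from 4257557 to 4272514). Its RPKM was 6.95 (6.52 to 7.398) in C4, 6.01 in C6, 5.07 in C3, 4.995 in C1, 4.76 in C2, 4.07 in C7, 2.88 in C5 and 3.23 in the input, the narrowest range of the members. C4 exceeded C6 by 1.16 (1.05 to 1.27) by total count, but with TMM factors C6 was higher, at 7.25 against 6.66.

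Il11 encodes a cytokine with roles in bone turnover, platelet formation and fibrosis (ENSMUSG00000004371, chromosome 7 from 4772373 to 4782857). The gene has 2 transcript starts in the RefSeq table. No motif match was found before the distal start, and the 120 bases before the proximal one, chr7:4778142-4778261 (- strand, GRCm38.p6), are shown for the AP-1 letters in capitals, from -98 to -92:

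Il11: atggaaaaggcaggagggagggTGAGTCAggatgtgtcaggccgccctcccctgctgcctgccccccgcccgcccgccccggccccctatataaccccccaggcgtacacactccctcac

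The RPKM of Il11 was 43.1 (41.4 to 44.97) in C2, 19.5 in C6, 12.6 in C4, 11.8 in C3, 4.17 in C1, 3.36 in C7, 2.17 in C5 and 3.16 in the input. C2, low for Il6 and Il34, was thus the highest for Il11, with C6 next at a ratio of 2.21 (2.06 to 2.37). In C2, 1.61% of genes held a lead of more than 2-fold in RPKM + 1 over each other sorted library. For Il11 this lead was lost with TMM factors, where the ratio of C2 to C6 was 1.72, and with DESeq2 size factors. C2 exceeded the input by 13.7 (11.4 to 16.5), or 21.9 with TMM factors.

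Il1b and Il1r2 had closely similar profiles. Il1b encodes the inflammatory cytokine IL-1β (ENSMUSG00000027398, chromosome 2 from 129364570 to 129371139), and Il1r2 encodes the decoy receptor CD121b, which binds IL-1 without signalling and was considered by the study as a surface marker of the clusters, although it is not among the sorting antibodies listed (ENSMUSG00000026073, chromosome 1 from 40074079 to 40125231). The 100 bases before the Il1b start, chr2:129371140-129371239 (- strand, GRCm38.p6), are shown because they hold the TATA letters, in capitals, from -31 to -26, but none of the other motifs:

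Il1b: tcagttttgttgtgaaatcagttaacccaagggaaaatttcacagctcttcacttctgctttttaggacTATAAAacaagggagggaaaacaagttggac

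The RPKM of Il1b was 188 (184 to 191) in C7, 77.8 in C4, 63.04 in C1, 62.9 in C6, 48.99 in C5, 42.9 in C2, 20.3 in C3 and 329 in the input. For Il1r2 it was 177 (174 to 181) in C7, 76.7 in C5, 76.6 in C4, 73.2 in C6, 54.6 in C1, 43.5 in C2, 21.9 in C3 and 202 in the input. By total count both were highest in the input, next in C7 and lowest in C3, the library with the highest Csf2. C7 exceeded C3 by 9.24 (8.67 to 9.85) for Il1b and by 8.09 (7.61 to 8.61) for Il1r2. By total count, Il1r2 in C5 and C4 did not differ beyond counting error (ratio 1.000, 0.948 to 1.06), and nor did Il1b in C1 and C6 (ratio 1.003, 0.955 to 1.05). With TMM factors these ratios were 1.32 and 0.704, outside the counting intervals. Both members led each other sorted library more than 2-fold in RPKM + 1 in C7, as did 0.962% of genes, and with TMM factors the ratio to the next library was 2.24 for Il1b and 1.65 for Il1r2. Over the 7 sorted libraries, Pearson's r of log2(RPKM + 1) between the pair was 0.958, and with Csf2 it was -0.6804 for Il1b and -0.778 for Il1r2. The values with Csf2 rest largely on C3, where Csf2 stood alone. The points share their libraries and depths, and r is given as a description here and in the following. The overlapping gene Gm14047 had at most 31 counts.

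Genes of myeloid blood cells were found in all sorted libraries and moved with Il1b and Il1r2 to differing degrees, although the populations were sorted as CD45-negative. All 8 neutrophil genes and all 6 monocyte and macrophage genes examined had RPKM above 2 in at least 1 sorted library, and none of them was at 0. Ly6c2, of the monocyte and macrophage genes, encodes a form of Ly-6C, which the study's results name among the isolation markers. The neutrophil genes, of which S100a9 was the most abundant, had a summed RPKM of 14117 in C1, 15946 in C2, 10822 in C3, 17013 in C4, 25513 in C5, 15139.5 in C6, 28898 in C7 and 42540.4 in the input. For the monocyte and macrophage genes, led by the lysozyme gene Lyz2, the sum was 1006 in C1, 1117 in C2, 636 in C3, 2266 in C4, 1422 in C5, 1765 in C6, 4491 in C7 and 6664 in the input. Of these, 6 of 6 monocyte and macrophage genes and 5 of 8 neutrophil genes were highest in C7 among the sorted libraries (background 25.3%), and C3 was the lowest for 4 and 6 (8.11%). The abundant neutrophil genes S100a8, S100a9 and Camp were highest in C5 instead, S100a8 with RPKM 7878 in C5 and 7151 in C7, and their highest library exceeded the lowest by 2.28 to 2.52. Over the sorted libraries, r of Il1b was 0.833 (Csf1r) to 0.957 (Cd14) with the monocyte and macrophage genes, 0.547 (Camp) to 0.9403 (Mmp8) with the neutrophil genes and -0.2599 (Hba-a2) to 0.0871 (Alas2) with the erythroid genes. For Il1r2 it was 0.782 (Csf1r) to 0.957 (Lyz2), 0.661 (Elane) to 0.971 (Mmp8) and -0.135 (Hba-a2) to 0.203 (Alas2) in the same order. Lyz2 made up most of the monocyte and macrophage sum, with 3738 of 4491 in C7 and 529 of 636 in C3. A share of this sum is thus largely set by Lyz2. As a share of the summed RPKM of the monocyte and macrophage genes, Il1b lay between 3.19% and 6.27% in the sorted libraries, a range of 1.96-fold where RPKM itself ranged 9.24-fold. For Il1r2 the share lay between 3.38% and 5.43%, a range of 1.605-fold against 8.09-fold. In the input the shares were 4.94% and 3.03%. As a share of the neutrophil genes, Il1b ranged 3.46-fold and Il1r2 3.03-fold. Because single abundant genes weigh most in both sums, these ranges do not tell the cell types apart. The shares of the other 8 members per monocyte and macrophage genes ranged from 8.804-fold for Lif and 11.6-fold for Csf3 to 204-fold for Csf2. Per neutrophil genes they ranged from 4.15-fold for Lif and 5.85-fold for Csf3 to 121-fold for Csf2. For each of these members except Il6, both ranges exceeded that of RPKM itself, which was 2.41-fold for Lif and 4.18-fold for Csf3. For Il6 they were 29.3-fold and 33.4-fold, against 37.6-fold for RPKM. The part of blood cells in the levels of Il1b and Il1r2 was not tested.

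**Figure D2:**
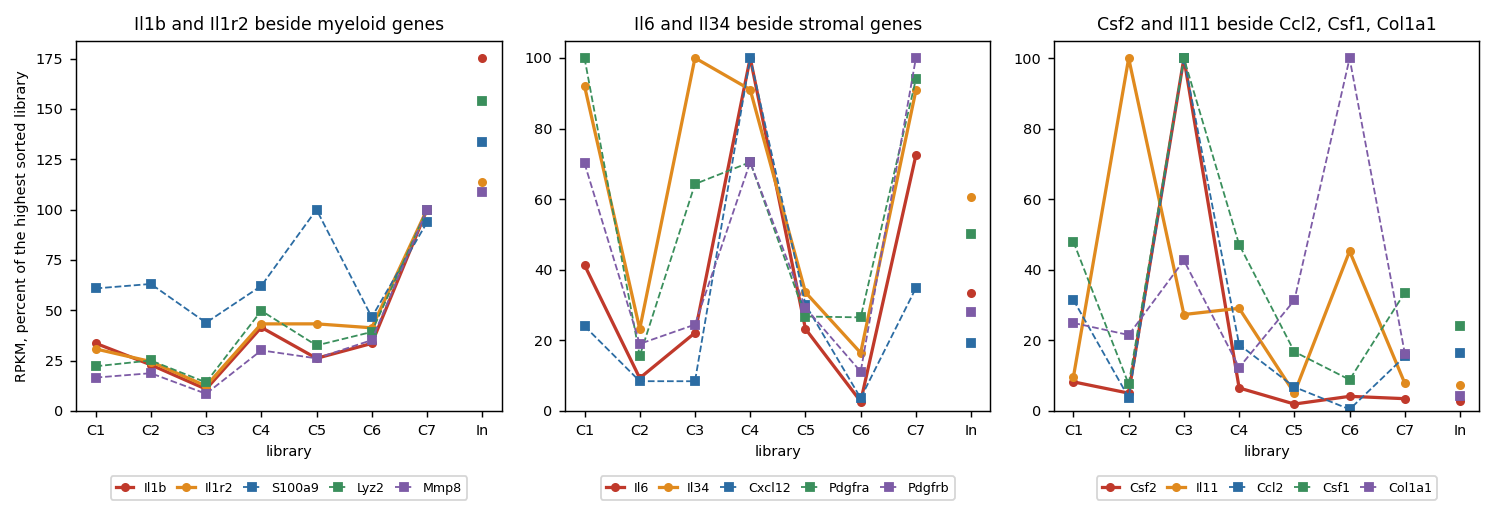
RPKM as a percent of the highest sorted library (vertical axes) by library, for pairs of members (solid lines) and for other genes (dashed lines), with the input as separate points. Il1b, Il1r2, Lyz2 and Mmp8, the gene with the highest r of the neutrophil list, run from a low in C3 to 100 in C7, whereas S100a9, the most abundant of that list, peaks in C5. Il6 and Il34 are lowest in C6 as are Cxcl12 and Pdgfrb, but not Pdgfra, and Csf2 peaks in C3 with Ccl2 and Csf1 while Il11 peaks in C2.

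Il33 had a profile closer to Il34 and Il6 than to Il1b, its relative in the IL-1 family (ENSMUSG00000024810, chromosome 19 from 29925114 to 29960718). Its RPKM was 13.1 (12.4 to 13.8) in C7, 10.95 in C1, 10.3 in C3, 7.64 in C4, 4.73 in C2, 3.02 in C5, 0.241 in C6 and 14.9 in the input. C6 stood apart at the low end with 22 counts, and C5 exceeded it by 12.6 (7.903 to 20.8), or 13.2 with TMM factors. C7 exceeded C1 by 1.197 (1.09 to 1.31), and C1 and C3 were not separated. Over the sorted libraries, r was 0.887 with Il34, 0.8296 with Il6 and 0.134 with Il1b. It was 0.932 with Ly6a, the gene of Sca-1, whose product was used in sorting.

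Tslp had the lowest peak of the members in the sorted libraries. It encodes thymic stromal lymphopoietin (ENSMUSG00000024379, chromosome 18 from 32815383 to 32819799). Its RPKM was 4.01 (3.296 to 4.83) in C1, 1.76 in C4, 1.04 in C7, 0.757 in C5, 0.684 in C3, 0.348 in C2, 0.251 in C6 and 10.2 in the input. Only C1 was above RPKM 2, with 110 counts against 65 in C4, a ratio of 2.28 (1.66 to 3.14). The intervals between neighbours from C7 down to C6 all included a ratio of 1, at 9 to 39 counts, although C7 exceeded C6 by 4.13 (1.97 to 9.69). The input exceeded C1 by 2.54 (2.02 to 3.22), and with TMM factors the values were 5.97 and 3.396. Among 858 olfactory receptor genes, which are not known for a role in marrow, the median RPKM was 0.174 and the 95th percentile 2.75 in the input, against a median of 0 in each sorted library. The value of Tslp in the input was above this percentile, whereas that of Csf2, 1.18, was below it. Lif, with 3.23, and Il11, with 3.16, were little above it in the input. The ratios of these 3 genes to the input thus rest on values near this background.

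Against the input, 27 of 67 pairs of a member and a sorted library with RPKM above 2 in either were more than 2-fold lower in RPKM + 1 (background 47.9%), and 7 were higher (4.59%). With TMM factors 19 of 66 were lower (background 26.7%) and 15 higher (13.8%), and with DESeq2 size factors 18 were lower (27%) and 14 higher (13.4%), so that the share over all genes moved with the scaling as well. By total count the higher ones were Csf2 in C3, Il6 in C4 and C7, and Il11 in C2, C3, C4 and C6. The input exceeded every sorted library for 4 members by total count (background 59.8%), and more than 2-fold in RPKM + 1 for Tslp alone (31.2%). With TMM factors the input was highest for Il1b, with 193 against 169.5 in C7, and for Tslp (background 28.5%), but for no member by more than 2-fold in RPKM + 1 (17.6%). It was not the highest for Il33, with 8.72 against 11.8, or for Il1r2, with 118 against 160.2.

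Scaling moved whole libraries. TMM factors shifted log2 values by 0.34 in C5, 0.27 in C6, -0.06 in C4, -0.07 in C3, -0.09 in C2, -0.15 in C7, -0.24 in C1 and -0.77 in the input. In C5, 34.8% of the counts fell on Rn18s-rs5, Lars2 and mmu-mir-689-2, against 10.4% in C2 and less in the others. The highest sorted library changed with TMM factors for Csf3 and Lif and for none of the other 8 members.

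**Figure D3:**
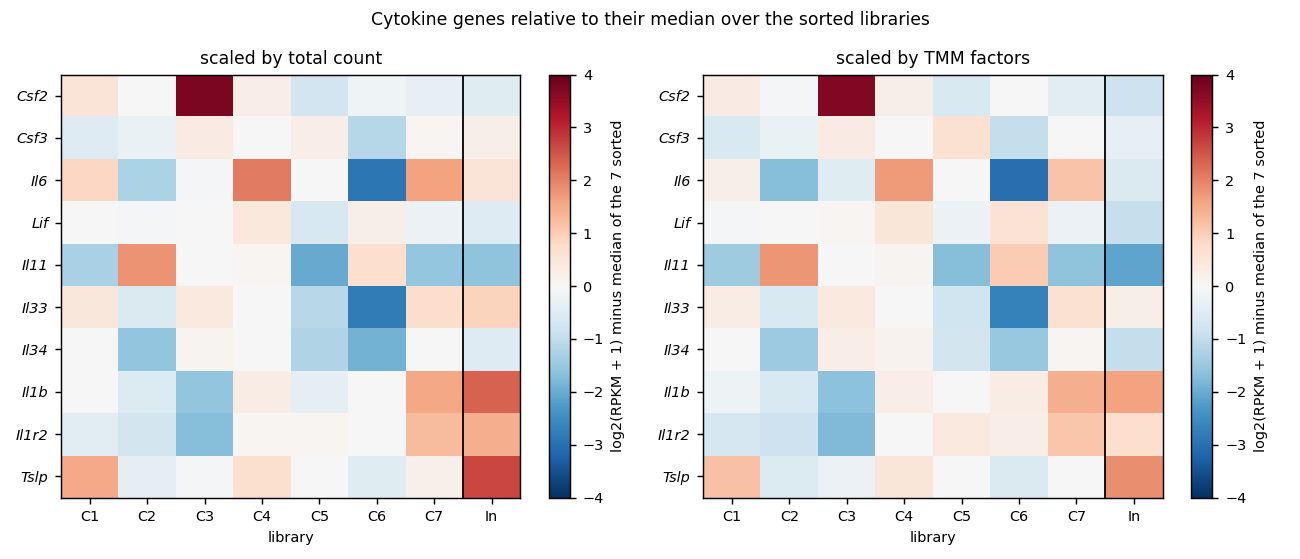
Difference of log2(RPKM + 1) from each gene's median over the 7 sorted libraries (colour scale from -4 to 4), scaled by total count (left) and by TMM factors (right), for clusters 1 to 7 (C1 to C7) and the input (In). The deep red of Csf2 in C3 and the blue of Il6 and Il33 in C6 appear under both scalings, whereas the red of Il33, Il1b, Il1r2 and Tslp in the input is paler with TMM factors.

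The receptor genes were examined beside their ligands. Of 16 genes for receptor subunits, 15 had RPKM above 2 in at least 1 sorted library and 13 ranged more than 2-fold (background 70.6%), 12 with TMM factors (56%), with a median log2 range of 1.70. Csf2 and its receptor genes were apart. Csf2ra, whose product binds GM-CSF, had RPKM 12.97 in C3, 9.36 in C5, 40.7 in C7 and 54.6 in the input. The signalling subunit gene Csf2rb had 5.92 in C3, 14.5 in C7 and 19.3 in the input. The G-CSF receptor gene Csf3r, a gene of the neutrophil lineage, was lowest in C3, with 4.41, and highest in C7, with 33.1. Csf1r, whose product is the receptor of IL-34 and CSF1, had 1.81 in C2, 15.05 in C7 and 23.1 in the input. Among the sorted libraries these receptor genes were thus highest in C7, as were Il1b and Il1r2.

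Among the receptors that use gp130, the shared chain gene Il6st was found in all sorted libraries, from 7.67 in C5 to 26.9 in C7. Il6ra, the gene of the IL-6 binding subunit, was low throughout, from 1.001 in C5 to 2.31 in C3. Il11ra1, which encodes the IL-11 receptor, reached the highest level of the receptor genes, with RPKM 125 in C4. It had 88.2 in C1, 78.5 in C7, 42.9 in C5, 30.1 in C2, 20.9 in C3 and 7.01 in C6, where Csf2ra was higher, with 27.5. C2 and C6, the highest libraries for Il11, were thus below C1, C4, C5 and C7 for its receptor gene, which had r of 0.936 with Il6 and -0.473 with Il11. Lifr, the LIF receptor gene, was highest in C6, with 12.8, and lowest in C1, with 3.14. Il1rl1, which encodes the IL-33 receptor ST2, was highest in C3, with 15.4, followed by C7, with 5.95, and lowest in C6, with 0.641, where Il33 was also lowest. The signalling IL-1 receptor gene Il1r1 had 17.7 in C4, 12.5 in C7, 12.4 in C1 and between 5.56 and 6.58 in the others. Crlf2 and Il7r, whose products form the TSLP receptor, lay between 4.22 and 9.605 and between 0.679 and 2.25.

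**Figure D4:**
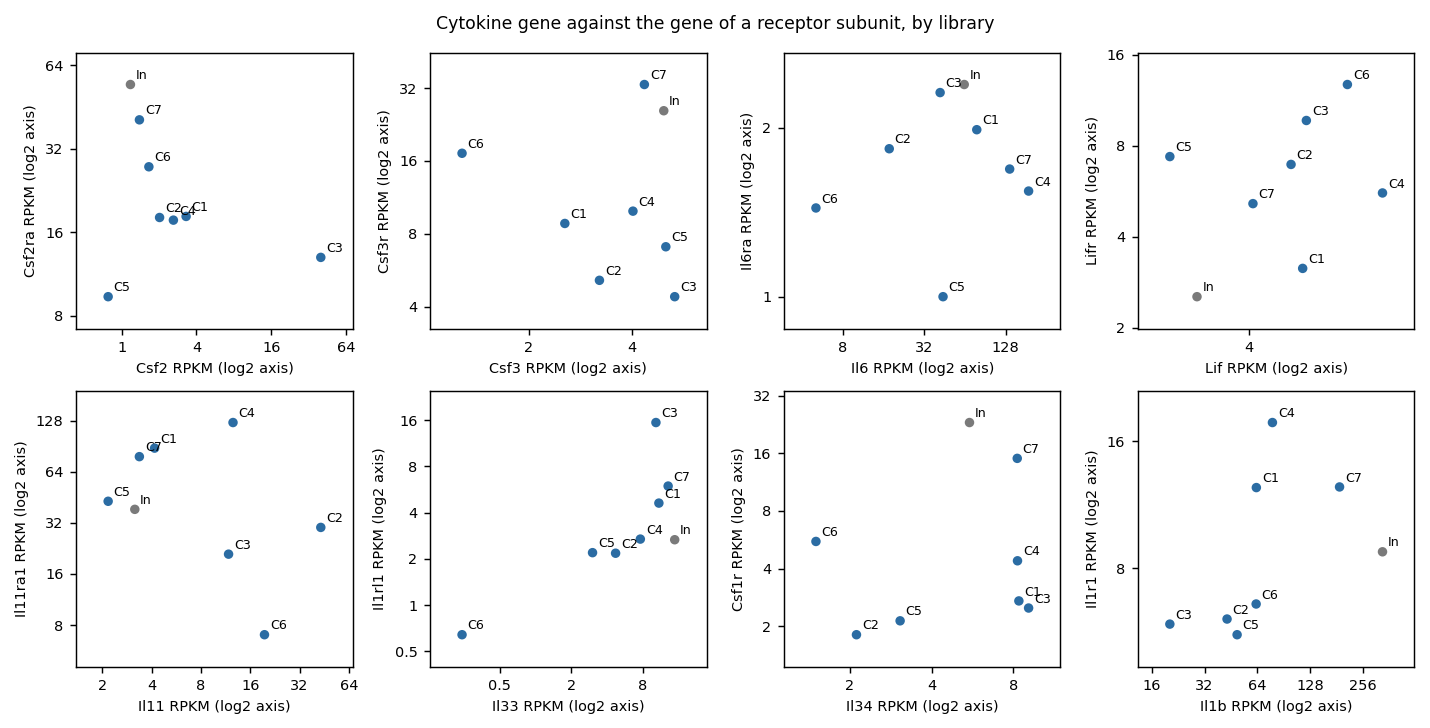
RPKM of a member (horizontal, log2 axes) against that of a receptor subunit gene (vertical, log2 axes) in the libraries of clusters 1 to 7 (C1 to C7, blue) and the input (In, grey). C3 lies at the highest Csf2 with Csf2ra below that of C7, C2 and C6 lie at high Il11 and lower Il11ra1 than C4, and C6 lies at the low end of both Il33 and Il1rl1.

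The genes for feedback inhibitors and targets of NF-κB, a transcription factor activated by inflammatory signals, had the widest range of the pathway lists. Of 17 genes, 16 ranged more than 2-fold (background 70.6%), and 16 with TMM factors (56%), with a median log2 range of 2.07. C6 was the lowest library for 8 of them (background 25.5%). Ccl2, the gene of a monocyte chemokine, had RPKM 1264 in C3, 398 in C1, 238 in C4, 195 in C7, 85.5 in C5, 48.01 in C2 and 5.66 in C6. The neutrophil chemokine gene Cxcl1 had 1106 in C3 and 28.4 in C6, and Ccl7, a close relative of Ccl2, had 1092 and 6.78. C3, the library of Csf2, was thus the highest for these 3 chemokine genes. Nfkbia, which encodes an inhibitor of NF-κB that NF-κB itself induces, had 1086 in C1, 985 in C3 and 209 in C6, with r of 0.951 with Il33 and 0.955 with Il34. Icam1, whose product CD54 was used in sorting, was highest in C4, with 237, as was Il6, and lowest in C3, with 11.4. Vcam1, an adhesion gene of marrow stroma, had 26.7 in C7, 25.96 in C4 and 3.19 in C6, and r of 0.949 with Il6. Ptgs2, the gene of the inducible cyclooxygenase, was highest in C7, with 113, and lowest in C2, with 16.8.

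Of 12 STAT and SOCS pathway genes, which relay and limit cytokine signals, 10 ranged more than 2-fold by total count (background 70.6%) and 6 with TMM factors, a share below the background of 56%, with a median log2 range of 1.18, near that of all genes. Socs3, a feedback inhibitor induced through gp130, was the most abundant, with RPKM 431 in C7, 336 in C4, 329 in C1, 218 in C3, 178 in C6, 175 in C2 and 111 in C5. Of 15 genes of the IL-1 family and its inhibitors, a list that includes Il1b, Il1r2 and Il33, 14 had RPKM above 2 in at least 1 sorted library. Of these 14, 13 ranged more than 2-fold (background 70.6%), and 12 genes did so with TMM factors (56%). By total count 10 of the 14 were highest in C7, the most frequent highest library over all genes (25.3%). Il1rn, the gene of the IL-1 receptor antagonist, had 26.6 in C7, 4.04 in C3 and 23.8 in the input. Il1a, the gene of IL-1α, had 11.3 in C7, 1.57 in C3 and 12.03 in the input. Casp1, whose product matures IL-1β, had 7.24, 1.43 and 13.6 in the same libraries. C7 and the input were thus the high libraries for these genes, as for Il1b.

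Stromal marker genes were examined beside the label of the libraries. All 7 had RPKM above 2 and ranged more than 2-fold (background 70.6%). The products of 2 of them, Pdgfra and Ly6a, were targets of the sorting antibodies, so that their presence is no independent check, whereas Pdgfrb, Cxcl12, Lepr, Col1a1 and Col1a2 are not listed among these. Pdgfra, the gene of PDGFR-α, had RPKM 28.1 in C1, 26.4 in C7, 19.8 in C4, 18.05 in C3, 7.51 in C5, 7.44 in C6 and 4.37 in C2. Cxcl12, which encodes a retention factor of blood stem cells, was highest in C4, with 139, and lowest in C6, with 5.04, as was Il6, with r of 0.914 between them, and Pdgfrb, a receptor gene of perivascular cells, had r of 0.9395 with Il6. Col1a1, a collagen gene of osteoblasts, was highest in C6, with 15952, and lowest in C4, with 1962. It reached the highest level of the stromal genes, although in C4 Col1a2 was slightly above it, with 1998. The stromal sum was 7369 in C1, 5363 in C2, 12639 in C3, 4607 in C4, 7115 in C5, 22067 in C6, 5089 in C7 and 2065 in the input. Col1a1 and Col1a2 made up most of it, with 15952 and 6087 in C6. The order of the sums is therefore not that of Cxcl12 or Pdgfrb, which were lowest in C6 among the sorted libraries.

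Markers of other blood and vessel cells were also found. The B lineage genes, led by Ighm, summed to 157 in C1, 152 in C2, 84.9 in C3, 134 in C4, 103 in C5, 183 in C6, 272 in C7 and 516 in the input. The basophil and mast cell genes, led by the protease gene Prss34, summed to 99.9 in C1, 124 in C2, 26.9 in C3, 70.2 in C4, 38.5 in C5, 57.6 in C6, 134 in C7 and 421 in the input. C3, the library of Csf2, was the lowest sum in both. The erythroid genes, led by Hba-a1, summed to 14562 in C1, 13322 in C2, 7328 in C3, 2259.7 in C4, 68504 in C5, 1591 in C6, 7411 in C7 and 689 in the input, and all 6 were highest in C5 (background 4.73%). Of 8 T cell and innate lymphoid genes, 3 had RPKM above 2, and the sum over all 8 was 35.7 in C1, 17.5 in C2, 28.99 in C3, 24.1 in C4, 14.4 in C5, 10.5 in C6, 21.5 in C7 and 39.2 in the input. Rora was the most abundant of these, with 17.5 in C1. Thy1 had the widest range of the list, with 14.4 in C1, 12.7 in C3 and 0.105 in C6. Among the sorted libraries the T cell receptor gene Trac reached 1.899 in C2 and was lowest in C3, with 0.158. Cd3d reached 1.16 in C7 and Cd3e 0.191 in C5, so that the order of the sums is not that of these T cell genes. The endothelial genes had a sum of 8.08 in C1, 5.91 in C2, 7.81 in C3, 2.68 in C4, 10.4 in C5, 2.31 in C6, 7.58 in C7 and 11.1 in the input. Pecam1, the gene of CD31, reached the highest level of these in a sorted library, 3.84 in C5, although in C3 Tie1 was above it, with 2.77 against 2.10. The part of these cells in the members' levels was not tested.

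For each member, the genes with the most similar profile were taken by r over the 7 sorted libraries among 7461 genes. For Il6 these were Gpc3, a glypican gene (r = 0.998), the complement gene C1ra (0.995) and Gas6, a ligand gene of TAM receptors (0.995). Gpc3 had RPKM 81.1 in C4, 57.4 in C7, 33.4 in C1 and 1.12 in C6. For Il34 they were Nsg1 (0.997), the scavenger receptor gene Scara5 (0.995) and Ltbp1, which encodes a TGF-β binding protein (0.995). For Il33 they were Fam26e (0.993), the transcription factor gene Foxp1 (0.989) and Ccdc3 (0.989). For Il1b they included the myeloid receptor gene Trem1 (0.986), which had RPKM 137 in C7 and 10.96 in C3. The genes nearest to Il1r2 were Ceacam10 (0.995), A530064D06Rik (0.982) and 1810033B17Rik (0.9803).

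For Csf2 the nearest genes were Rasgef1a (0.997), Gm14268 (0.983) and Cyp21a1 (0.976), all at a low level, with 3.16, 2.29 and 5.07 in C3. Since Csf2 was high in C3 alone, these r rest largely on that library. In the input Rasgef1a was at 4.49, above its level in C3, unlike Csf2. For Il11 they were Cda, the cytidine deaminase gene (0.982), Mlf1 (0.977) and the uridine-cytidine kinase gene Uck2 (0.974), and Cda had RPKM 10.1 in C2 and 3.97 in C6. For Tslp they were the homeobox gene Isl1 (0.984), Mtap7d2 (0.977) and Clec1a (0.975), each highest in C1 among the sorted libraries. In the input Isl1 was at 15.6 against 9.34 in C1, whereas Clec1a was at 0.412 against 3.21. For Lif the nearest were the Wnt ligand gene Wnt11 (0.949), Ubtd1 (0.936) and Atl1 (0.9297). Csf3 had the weakest likeness, with the water channel gene Aqp5 (0.855), the tight junction gene Cldn5 (0.845) and the homeobox gene Gsc (0.839). Of the 30 genes so chosen, 15 were chosen again with TMM factors and 14 without the C5 library.

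RefSeq promoters were matched for 7 of the 10 members, with 9 transcript starts. Among these, the NF-κB letters occurred only before the Il6 start. The AP-1 letters occurred before the starts of Il6 and Lif and the proximal start of Il11, and the C/EBP letters before those of Il6 and Csf2 and before the downstream start of Il33 at 29945790. The TATA letters occurred before the Il1b start and before both Il33 starts, from -203 to -198 at the upstream and from -29 to -24 at the downstream one. The Csf2 start of RefSeq, at 54249899, lies outside the gene as counted, which ends at 54249667, so that its window does not adjoin the counted transcript. That of Il1r2, at 40086093, lies inside the gene as counted, which begins at 40074079, so that its window does not precede the counted start. The absence of a match says only that these letters are not in the window.

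**Figure D5:**
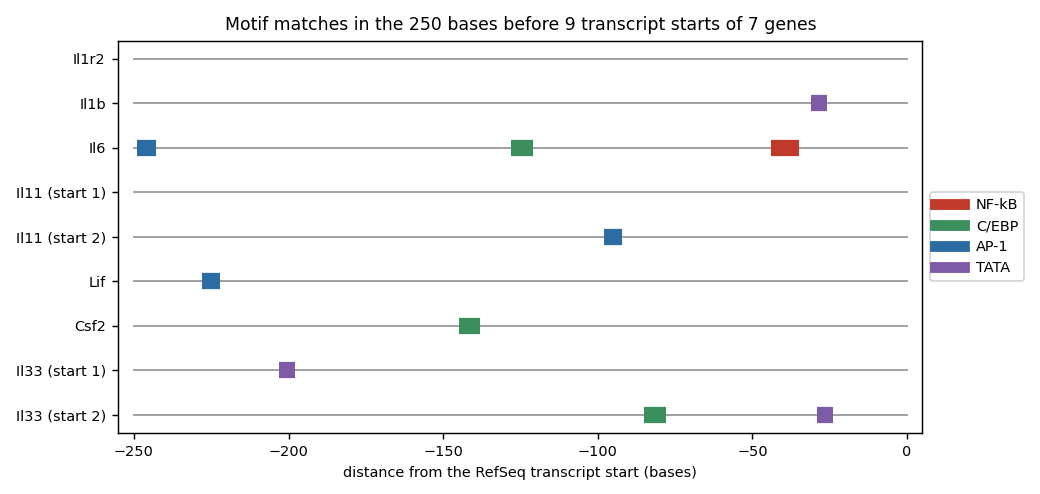
Positions of matches to the NF-κB, C/EBP, AP-1 and TATA letters (coloured blocks) along the 250 bases before each of 9 RefSeq transcript starts of 7 genes (horizontal axis, bases from the start). Il6 holds matches to 3 of the 4 motifs, and the distal start of Il11 (start 1) holds none, nor does the window of Il1r2, which lies inside the gene as counted.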

How the data were processed

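Libraries of 7 sorted populations and the input, 1 each, were used. The deposited files hold raw counts of reads per Ensembl gene and exon lengths. According to the study's methods, bases below a Phred value of 20 were trimmed and reads were aligned by TopHat2 to mm9 in Partek Flow 2.2. The files give gene positions of GRCm38. How reads were counted, the use of strand and the treatment of shared reads are not given in the sources used here. RPKM was calculated with the total count and exon length, and 1 was added for fold changes. The thresholds of the methods were kept (RPKM above 2, fold above 2). TMM factors (edgeR 4.0.16) were rescaled to a geometric mean of 1 over the sorted libraries, and DESeq2 1.42.0 gave size factors only. No test between populations was run.

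The genes named were the 10 members and selected genes of 6 pathway and 8 marker lists. Genes with the highest, lowest and widest-ranging values came first, but not in every list. For each member, the 3 genes with the highest r were added, among those with a symbol, RPKM above 2, at least 50 counts and a range above 2-fold. For Il1b, 2 of these 3 genes are not reported here. The members and lists were chosen with earlier results of these data known. Of 49315 genes, 32464 had a symbol, and 4 symbols were matched by identifiers entered by hand. Alternatives were TMM factors, size factors, totals without 3 loci, a pseudocount of 0.1, RPKM above 1, no filter and equal depth. Omission of C5 and the alternatives for the input were added after the data were seen. The calculations were tested on simulated counts. R 4.3.3 and Python 3.11.15 were used, the latter with scipy 1.17.1, pandas 2.3.3, matplotlib 3.10.9 and numpy 2.4.6.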

Additional observations from a re-analysis of the deposited data

How the results depend on the processing

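No paired analysis was possible because the populations have no replicate numbers, with 1 library each. Of 113 values recomputed under the alternatives, 91 were classed as the same, 20 as moved and 2 as reversed. A value classed as the same need not be equal. The pairs lower than the input, 27 by total count, were so classed at 19 with TMM factors and 18 with size factors. For Lif, the log2 ratio of C4 to C6 in RPKM + 1 was 0.18 and reversed to -0.11 with TMM factors and -0.11 with size factors. For Csf3, that of C3 to C5, whose interval included no difference, changed sign from 0.07 to -0.28, -0.33 and, without Rn18s-rs5, Lars2 and mmu-mir-689-2, -0.44, and was not counted as a reversal. The number of members with a lead of more than 2-fold over the next sorted library was 4, but 2 with TMM factors and 2 with size factors (background 5.4%, 5.93% and 6.21%). Of the 30 genes most like a member, 15 were kept with TMM factors, 15 with size factors, 18 without the 3 loci and 14 without C5. Pairs of a member and a sorted library more than 2-fold higher than the input numbered 7, but 15 with TMM factors and 14 with size factors, and the share over all genes moved from 4.59% to 13.8% and 13.4%. Lower ones numbered 27, 19 and 18, with shares of 47.9%, 26.7% and 27%. The cause was not tested. In C5, the library with the lowest total, 3 counts of a gene of 1 kb correspond to RPKM 0.234, so that levels near it could not be ordered.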

Other observations

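Of 15 other haematopoietic cytokine genes, 8 had RPKM above 2 in at least 1 sorted library, and 8 of these ranged more than 2-fold (background 70.6%). Csf1, which encodes the other ligand of the CSF1 receptor, had RPKM 74.7 in C3, 35.8 in C1, 35.3 in C4, 25.1 in C7, 12.5 in C5, 6.61 in C6 and 5.66 in C2, above Il34 in each of these libraries. Osm, the gene of the gp130 cytokine oncostatin M, was highest in C7, with 94.2, and lowest in C3, with 6.89, the same ends as for Il1b. Kitl, the stem cell factor gene, had 5.36 in C1 and 0.9804 in C6, and with TMM factors C5 was the highest, with 4.65. Tnfsf11, which encodes RANKL, was highest in C7, with 15.3, and lowest in C3, with 1.27. Il3, the neighbour of Csf2 in the genome, had at most 0.124 in a sorted library, and Flt3l was at 0 counts in all 8 libraries.

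Of 8 genes for factors that bind AU-rich transcripts or break them down, 5 ranged more than 2-fold (background 70.6%), and 5 with TMM factors (56%), shares near the background, with a median log2 range of 1.15 against 1.26 for all genes tested. Zfp36, the gene of tristetraprolin, which shortens the life of cytokine mRNAs, was the most abundant, with RPKM 587 in C7, 499 in C1, 474 in C4, 236 in C3, 215 in C2, 179 in C6 and 175 in C5.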
